A study of Mus musculus with 6 samples.

Results

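The proteins studied here regulate Hsp70, the ATP-driven chaperone that binds unfolded stretches of other proteins. Hsp70 holds its client tightly in the ADP-bound state and lets go once a nucleotide exchange factor has removed the ADP. Many proteins of the BAG family, through a BAG domain that binds the Hsp70 ATPase domain, and Hspbp1 are such factors. St13, also called Hip, binds the same ATPase domain and slows the release of ADP, and Stub1, also called CHIP, is a ubiquitin ligase that docks on Hsp70 and marks its clients for degradation. The lens is a tissue of long-lived proteins, and Hsf4 is the heat shock transcription factor required for the terminal differentiation of its fiber cells.

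The members were Bag1, Bag2, Bag3, Bag4, Bag5, Bag6, Hspbp1, St13 and Stub1, taken by gene symbol. All 9 genes were measured, by 12 probe sets, out of 12393 genes and 22626 probe sets tested. A probe set is a group of short oligonucleotides against one transcript, and the platform's annotation named each of the 12 with a single symbol. Bag4, St13 and Stub1 have 2 probe sets each, and a gene is represented below by the one with the higher mean over all arrays. The 6 arrays carry RNA from newborn mouse lenses, 3 of wild-type and 3 of Hsf4 null genotype, all of the ICR strain, and the comparison asks which transcripts depend on Hsf4. The labels give the genotype as null and name no tissue-specific driver, and the number of lenses behind each array is stated nowhere in the sources read. Nothing in the labels says whether null and wild-type animals were littermates, and beyond the term biological triplicates no source describes how the replicates were obtained.

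As a check of the labels, the Hsf4 probe set went from 9.35 ± 0.24 (SD, n = 3) in wild-type to 4.04 ± 0.24 (SD, n = 3) in Hsf4-null lenses on the log2 scale. Array medians lay between 5.22 and 5.38 on the log2 scale, and the correlation of log2 values was 0.991 to 0.994 for arrays of the same genotype and 0.982 to 0.990 for arrays of different genotype. The tissue matched its label, with Cryaa at 14.0 ± 0.05 (SD, n = 3) in wild-type lenses. Of 8 measured lens fiber markers, 1 fell, Bfsp1, against 2.11% of all genes, at an adjusted p under 0.05 from limma, described below. Their summed intensity was 105884 to 108710 in wild-type and 94383 to 100258 in Hsf4-null lenses. Without Bfsp1 the sums of the other 7 overlapped, at 95380 to 98768 and 91289 to 96743. Of 46 measured markers of tissues other than lens, 2 rose (Col1a1 and Twist1, of mesenchyme), 0 fell and 44 did not pass. Over all genes, 0.775% rose and 2.11% fell by that rule. The summed intensity of 7 mesenchyme markers was 1573 to 1738 in wild-type and 1751 to 2293 in Hsf4-null lenses. The sums overlapped when Col1a1 (1296 to 1626 and 1213 to 1547), Postn (1535 to 1701 and 1687 to 2260) or Twist1 (1558 to 1722 and 1718 to 2262) was left out. Without Pdgfra they were 262 to 449 and 751 to 966, and without Col1a2, Col3a1 or Lum they also stayed higher in all Hsf4-null arrays. The summed intensity of 6 vascular markers was 1061 to 1339 and 1433 to 1546, and stayed higher in all Hsf4-null arrays when any one of the 6 was left out. The part of these markers in the results below was not tested. Those of 4 pigment cell markers (282 to 1015 and 822 to 1848), 7 macrophage markers (427 to 1127 and 761 to 1353) and 6 retina markers (188 to 970 and 179 to 1212) overlapped between wild-type and Hsf4-null arrays, as did those of 2 blood markers (35.4 to 54.8 and 51.4 to 62.3), 5 cornea and skin markers (85.6 to 91.5 and 83.2 to 104) and 6 lens epithelium markers (19913 to 21094 and 20360 to 21514). The median log2 fold change of the 4 pigment cell markers was 1.29. At an unadjusted p under 0.05 from limma, described below, 2 of them were higher and 0 lower, against 7.34% and 8.38% of all genes. Their part in the results below was not tested. Markers of skeletal muscle, a tissue known for high Bag3, were dim, and all 9 averaged below the lowest array median. In whole lenses, fewer cells of a type and less RNA per cell cannot be told apart.

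Heat shock factors bind heat shock elements, inverted repeats of the unit GAA, so the promoters of the members were searched for them. RefSeq promoter windows on GRCm38.p6, from 250 bases before to 50 bases after the transcript start, were found for Bag1, Bag2, Bag3, Bag5, Bag6, Hspbp1 and Stub1, in 8 windows. Not matched were Bag4 and St13. The pairs searched were GAANNTTC and TTCNNGAA, each of which reads the same on both strands, and both runs of 3 alternating units at the same spacing, which contain the pairs and are each other's reverse complement. GAANNTTC occurred in 2 of the 8 windows, those of Bag3 and Stub1, and in 7.86% of all 32851 windows. TTCNNGAA was in 0 of the 8, against 8.52% of all windows, and each run was in 0 of the 8, against 0.31% and 0.32%. The matches are shown first because Bag3 fell in the arrays and Stub1 did not pass the test, with the pair in capitals:
Bag3, plus strand, chr7:128523603-128523632: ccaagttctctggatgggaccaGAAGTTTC
Stub1, minus strand, chr17:25833024-25833053: agagcgcggcgGAAGCTTCtcagagctaag
The Bag3 pair lies after the transcript start, at bases 43 to 50 counted from 1 at the start. The Stub1 pair lies before it, from base -123 to -116. The Bag3 pair ends at the last base of its window, so a further unit after that pair was outside the search. Upstream of its start, the Bag3 window holds 3 single GAA units, in capitals, and 0 of the reverse unit TTC:
Bag3, plus strand, chr7:128523333-128523582: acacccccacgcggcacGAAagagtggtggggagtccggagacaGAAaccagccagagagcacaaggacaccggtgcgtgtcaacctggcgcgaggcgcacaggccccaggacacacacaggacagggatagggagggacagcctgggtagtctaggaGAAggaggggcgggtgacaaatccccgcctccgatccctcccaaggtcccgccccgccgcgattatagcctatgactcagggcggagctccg
These matches describe the letters of the windows, and binding of any factor was not measured here.

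In Hsf4-null lenses 2 of the 9 genes fell, Bag3 and St13, 0 rose and 7 did not pass the test, which is limma, a linear model in which all probe sets inform the estimate of each one's spread, at a Benjamini-Hochberg adjusted p under 0.05 over all probe sets. Over all genes, 2.11% fell and 0.775% rose by the same rule. The median log2 fold change of the 9 genes was -0.09, and that of all genes was 0.01. Of the 12 probe sets, 2 fell, 0 rose and 10 did not pass, against 1.94% of all probe sets that fell. The count of 2 genes became 1, with Bag3 no longer called, when any of 4 arrays was left out (replicates 1 and 2 of the wild-type and replicates 2 and 3 of the Hsf4-null lenses), and was 2 without either of the other arrays.

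**Figure D1:**
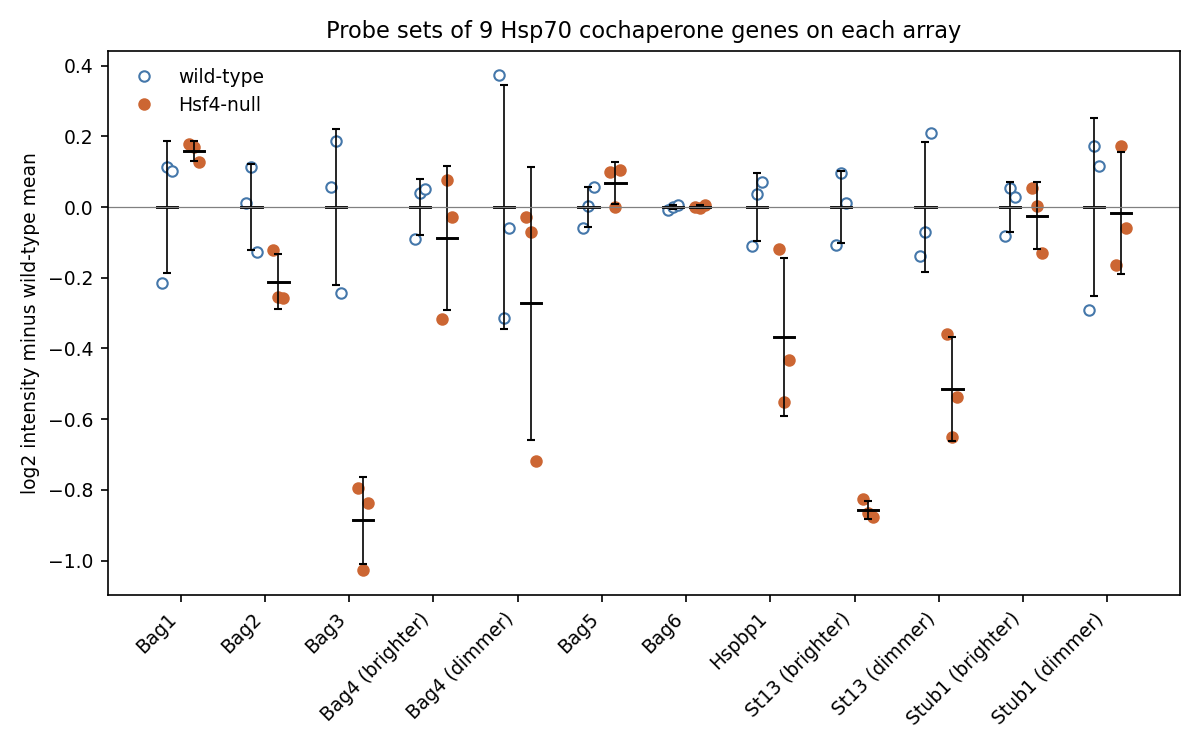
Log2 intensity of each of the 12 probe sets on each array, with the probe set's wild-type mean subtracted, on the vertical axis. Open points are the 3 wild-type arrays, filled points the 3 Hsf4-null arrays, and bars give the mean ± SD. The Hsf4-null points of Bag3 and of the brighter St13 probe set lie clear of the wild-type points, and those of Bag6 coincide with them.

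Bag3 is the BAG protein that is itself induced by heat stress, and it hands Hsp70 clients to selective autophagy together with the small heat shock protein Hspb8. Its only probe set had log2 intensities of 5.84, 5.97 and 5.54 on the wild-type arrays and 4.99, 4.76 and 4.95 on the Hsf4-null arrays. Each Hsf4-null array lay below each wild-type array, by at least 0.55 on the log2 scale. The means were 5.79 ± 0.22 (SD, n = 3) and 4.90 ± 0.12 (SD, n = 3), a fall by 0.89 (standard error, SE, 0.14, 95% confidence interval -1.20 to -0.57, limma adjusted p = 0.0149). On the linear scale this was 1.85-fold lower, or 45.9% less, with an interval from 32.7% to 56.5% less. All 3 wild-type values lay above the median of their own array and all 3 Hsf4-null values below it. With no detection calls in the file, the size of a change that ends so low on the scale is uncertain. The call of Bag3 rests on narrow margins. Its limma adjusted p rose to 0.0501 and 0.0611 when wild-type replicates 1 and 2 were left out in turn, and to 0.0576 and 0.0615 when Hsf4-null replicates 2 and 3 were. The log2 fold change stayed between -1.01 and -0.79 over the 6 fits that leave out an array. Bag3 passed the methods' t-test at its unadjusted threshold of 0.05, and was not called by it after Benjamini-Hochberg adjustment over all probe sets.

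Of the other BAG genes none passed limma, and none had an unadjusted p under 0.05 from limma or from the methods' t-test. Bag1, an exchange factor whose ubiquitin-like domain links Hsp70 to the proteasome, had log2 intensities of 10.79, 11.12 and 11.11 on the wild-type and 11.19, 11.18 and 11.13 on the Hsf4-null arrays. All Hsf4-null arrays were above all wild-type arrays, though only narrowly above 2 of them, and the low wild-type replicate 1 made most of the difference in means. The log2 fold change was 0.16 (SE 0.12, 95% confidence interval -0.11 to 0.43, limma adjusted p = 0.573). Without wild-type replicate 1 it was 0.05. Non-overlapping groups were common here, since over all genes 10.1% had every Hsf4-null array above and 11.5% every Hsf4-null array below the wild-type arrays. Among the members 1 gene, Bag1, was of the first kind and 3, Bag3, Hspbp1 and St13, of the second.

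Bag6, a large protein that collects newly made membrane proteins and hands mislocalized ones to degradation, hardly varied. Its intensities on the linear scale were 2007, 2019 and 2026 on the wild-type and 2018, 2015 and 2025 on the Hsf4-null arrays. The highest of the 6 arrays was 0.954% above the lowest, which was the smallest range of all 22626 probe sets on the deposited scale, where the median range was 0.46 on the log2 scale. The rank depends on how the arrays are scaled. After a second quantile normalization the Bag6 range was the 7th smallest, at 3.36%, and after centring each array on its median it was the 291st, at 11.3%. Recomputing the range under these scalings was decided after its small size was seen. The log2 fold change was 0.00 (SE 0.09, limma adjusted p = 0.995). Because limma moves each spread towards that of all probe sets, its 95% interval, from 12.9% lower to 15.0% higher, is far wider than the spread of the arrays themselves.

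Bag5, a protein with several BAG domains, was at 6.93, 6.99 and 7.04 on the wild-type and 7.08, 6.99 and 7.09 on the Hsf4-null arrays. The groups overlapped, and the 95% interval of the change ran from 9.70% lower to 21.7% higher (limma adjusted p = 0.78). Bag4, the silencer of death domains that binds the tumor necrosis factor receptor, has 2 probe sets. By the brighter it was at 5.22, 5.35 and 5.36 on the wild-type and 4.99, 5.38 and 5.28 on the Hsf4-null arrays, and the interval ran from 23.1% lower to 15.0% higher (limma adjusted p = 0.79). The dimmer set was below the array median on all 6 arrays and more variable, with an SD of 0.35 on the wild-type and 0.39 on the Hsf4-null arrays, and its log2 fold change of -0.27 had an interval from -0.81 to 0.27. That interval reaches nearly to the fall seen for Bag3. Bag2, which inhibits the ligase activity of Stub1, was below the array median on every array, at 4.36, 4.46 and 4.22 on the wild-type and 4.22, 4.09 and 4.09 on the Hsf4-null arrays. Only Hsf4-null replicate 1 reached into the wild-type range. The log2 fold change of Bag2 was -0.21 (SE 0.10, 95% confidence interval -0.45 to 0.03, limma adjusted p = 0.397).

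Hspbp1 is an exchange factor with an armadillo-type fold in place of a BAG domain, and it also inhibits Stub1. It was at 6.57, 6.72 and 6.75 on the wild-type and 6.56, 6.13 and 6.25 on the Hsf4-null arrays. The groups did not overlap, but the gap between the nearest arrays, wild-type replicate 1 and Hsf4-null replicate 1, was 0.0082 on the log2 scale. The log2 fold change of Hspbp1 was -0.37 (SE 0.13, 95% confidence interval -0.68 to -0.06), with an unadjusted p of 0.0255 and an adjusted p of 0.245 from limma. At an unadjusted p under 0.05, 3 of the 9 genes were lower (Bag3, Hspbp1 and St13) and 0 were higher, against 8.38% and 7.34% of all genes. Hspbp1 passed in none of the 16 alternative settings.

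St13 acts against the exchange factors by keeping ADP on Hsp70. Its brighter probe set had log2 intensities of 10.30, 10.50 and 10.42 on the wild-type and 9.58, 9.54 and 9.53 on the Hsf4-null arrays. The Hsf4-null arrays agreed within 0.05 and lay at least 0.72 below the wild-type arrays. The means were 10.4 ± 0.10 (SD, n = 3) and 9.55 ± 0.03 (SD, n = 3), a fall by 0.86 (SE 0.10, 95% confidence interval -1.08 to -0.63, limma adjusted p = 0.0035). This was 1.81-fold lower, or 44.7% less, with an interval from 35.4% to 52.7% less, at a level where all arrays were well above their medians. By p, this probe set ranked 168th of all 22626, and by size of the decrease 257th among the 439 that fell, so the fall was precise rather than large. Leaving out each array in turn gave log2 fold changes from -0.91 to -0.81 with adjusted p from 0.00959 to 0.0237 from limma, and the call held in all 16 alternative settings, with an adjusted p of at most 0.0454, reached with the methods' t-test after adjustment.

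The second St13 probe set was lower too, at 5.84, 5.90 and 6.18 on the wild-type and 5.61, 5.32 and 5.44 on the Hsf4-null arrays, without overlap. Its log2 fold change of -0.52 (SE 0.13, 95% confidence interval -0.82 to -0.21) did not pass (limma adjusted p = 0.101). Both St13 estimates were thus negative, and their intervals overlapped. A difference in size between them was not tested.

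Stub1, the ligase that Bag2 and Hspbp1 inhibit, did not pass by either probe set. The brighter was at 9.77, 9.91 and 9.88 on the wild-type and 9.91, 9.86 and 9.72 on the Hsf4-null arrays, and its change was bounded by 16.2% lower and 15.4% higher (limma adjusted p = 0.936). The other had a log2 fold change of -0.02 (95% confidence interval -0.37 to 0.34, limma adjusted p = 0.973). Its name ends in x_at, the manufacturer's mark for probes that may also bind other transcripts, and in wild-type lenses its SD was 0.25, against 0.07 for the brighter set. By the probe set that represents each gene, the lower ends of the 95% intervals of Bag1, Bag2, Bag4, Bag5, Bag6 and Stub1, from -0.45 for Bag2 to -0.11 for Bag1, were all above -0.63, the upper end for St13. The differences in change between members were not tested.

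**Figure D2:**
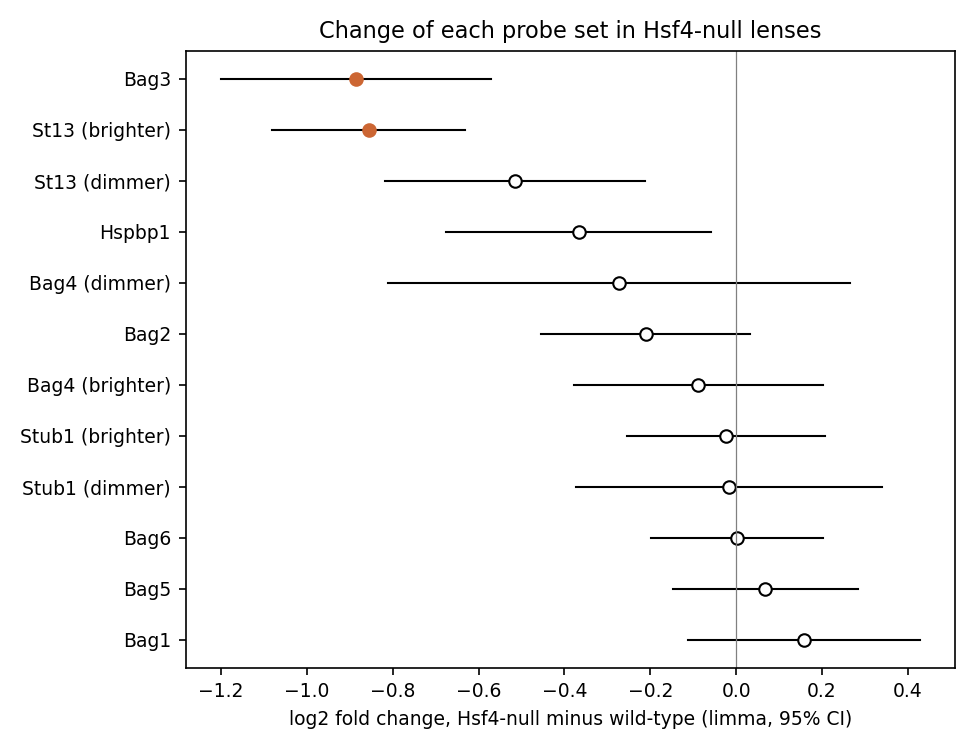
Log2 fold change, Hsf4-null minus wild-type arrays, of the 12 probe sets on the horizontal axis, as limma estimates from 3 arrays per genotype with 95% confidence intervals. Filled points passed at an adjusted p under 0.05 and are Bag3 at -0.89 and the brighter St13 probe set at -0.86, while Bag6 lies at 0.00 and both Stub1 sets at -0.02.

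**Figure D3:**
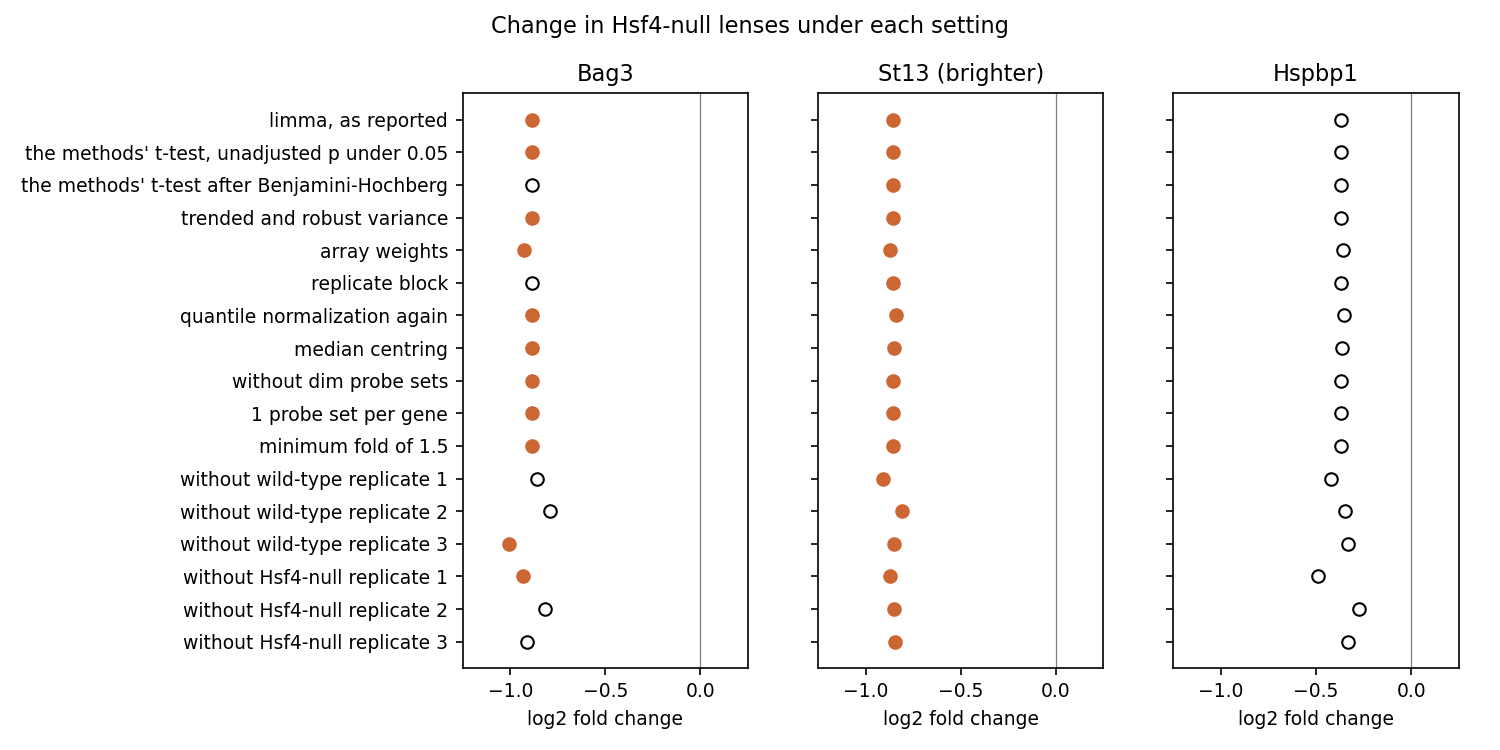
Log2 fold change of Bag3, the brighter St13 probe set and Hspbp1 on the horizontal axis, under limma as reported and each of 16 alternative settings, which include leaving out each array. Filled points passed the threshold of that setting. St13 is filled throughout, Bag3 is open in 6 settings, and Hspbp1 is open throughout.

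The genes whose brightest probe set followed Bag3 and St13 most closely over the 6 arrays were named by Pearson's r. The arrays form 2 genotypes, so a high r mainly reflects the difference between them. The direction of each gene below, and its pattern over the arrays, were fixed by this choice, and the values are given as a description with no test. For Bag3 these were Isy1 (r = 0.991), Zfp626 (0.990) and Usp15 (0.990). Isy1, a splicing factor, was at 5.82, 5.91 and 5.52 on the wild-type and 4.80, 4.76 and 4.84 on the Hsf4-null arrays, a log2 fold change of -0.95 (SE 0.12). For St13 they were Stambpl1 (r = 0.999), Trappc3 (0.998) and Ceacam10 (0.997). Stambpl1, a deubiquitinating enzyme, was at 8.30, 8.62 and 8.49 on the wild-type and 6.33, 6.27 and 6.19 on the Hsf4-null arrays, a log2 fold change of -2.21 (SE 0.11). Those of Trappc3, a subunit of a vesicle tethering complex, and Ceacam10 were -0.63 (SE 0.10) and -6.10 (SE 0.32).

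Of 70 measured genes that encode Hsp70 proteins or work with the members, 9 fell, 1 rose and 60 did not pass, where 2.11% of all genes fell and 0.775% rose. The median log2 fold change of the 70 was -0.06, and that of all genes was 0.01. The total of 10 dropped to 5 when wild-type replicate 2 was left out, and to 6 when the third replicate of either genotype was. The J-domain cochaperones, which deliver clients to Hsp70 and stimulate its ATPase, had the most calls, with 5 of 9 lower, against 2.11% of all genes, 0 higher and a median log2 fold change of -0.48. Dnajb1 fell by 2.13 (SE 0.11), Dnajb2 fell by 2.03 (SE 0.17), Dnaja4 fell by 1.88 (SE 0.21) and Dnajb4 fell by 1.25 (SE 0.11). Of the 3 probe sets of Dnaja4, 2 were called lower. Dnaja1 passed narrowly (limma adjusted p = 0.0495), by 1 of its 2 probe sets. Its call was lost without any one of the 6 arrays. Among 14 measured partners of Bag3 in selective autophagy, 2 fell and 0 rose, against 2.11% and 0.775% of all genes, with a median of -0.13. Hspb8, the small heat shock protein that acts with Bag3, went from 6.92 ± 0.13 (SD, n = 3) on the wild-type to 5.86 ± 0.32 (SD, n = 3) on the Hsf4-null arrays, without overlap. It fell by 1.06 (SE 0.17, limma adjusted p = 0.0163) by its brightest of 3 probe sets, the only one of the 3 that passed, and was not called when wild-type replicate 2 or 3 was left out. Hspb1 fell by 4.12 (SE 0.21), and both of its probe sets passed.

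Of 13 measured Hsp70 and Hsp110 chaperones themselves, 1 fell and 0 rose by each gene's brightest probe set, against 2.11% and 0.775% of all genes. The median log2 fold change was -0.01. At an unadjusted p under 0.05 by limma, 4 were lower and 1 higher, against 8.38% and 7.34% of all genes. The one that fell was Hspa9, the mitochondrial Hsp70, by 0.54 (SE 0.10, limma adjusted p = 0.0288), with 2 of its 4 probe sets called lower. Its call held without wild-type replicate 1 and was lost without any one of the other 5 arrays and with each array centred on its median. Hspa8, the constitutive cytosolic Hsp70, had a log2 fold change of -0.25 (95% confidence interval -0.49 to -0.01, limma adjusted p = 0.297). That probe set also carries the x_at mark, and of the 4 probe sets of Hspa8, 0 were called. Hsph1, an Hsp110 protein and itself an exchange factor for Hsp70, had -0.51 by its brighter probe set (95% confidence interval -0.81 to -0.22, limma adjusted p = 0.0955). By that probe set every Hsf4-null array was below every wild-type array. Hsph1 and Hspa4l were not called by their brighter probe sets, but each had 1 of 2 probe sets called lower. Of the inducible Hsp70 genes, Hspa1a was dim, at 3.29 ± 0.15 (SD, n = 3) on the wild-type arrays, and Hspa1b had an interval from -0.30 to 1.08. Among 11 measured other exchange factors and tetratricopeptide cochaperones 1 fell and 0 rose, against the same shares of all genes. It was Stip1, or Hop, which joins Hsp70 to Hsp90 (fell by 0.77, SE 0.11, limma adjusted p = 0.0128), a call lost when wild-type replicate 2 or Hsf4-null replicate 3 was left out.

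The remaining lists, of partners of Bag6, Stub1, Bag1 and Bag4, are short, and at 2.11% lower and 0.775% higher over all genes a count of 0 in them is near the background. Of 8 measured genes of the Bag6 pathway for tail-anchored proteins, 0 fell and 0 rose by limma, and the median was 0.13. At an unadjusted p under 0.05 from limma, 0 of them were lower and 2 higher, against 8.38% and 7.34% of all genes. Of 10 measured ubiquitin partners of Stub1, 0 fell and 0 rose, 0 passed at an unadjusted p under 0.05, and the median was 0.01. The methods' t-test after adjustment called 2 of the 70 genes, Dnajb1 and Hspb1. Of 5 measured partners of Bag1 and Bag4, 0 fell and 1 rose. It was Tradd, an adapter of the tumor necrosis factor receptor, which rose by 0.56 on the log2 scale (SE 0.11, limma adjusted p = 0.0443). Only 1 of its 2 probe sets was called, and that call was lost without any one of the 6 arrays.

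**Figure D4:**
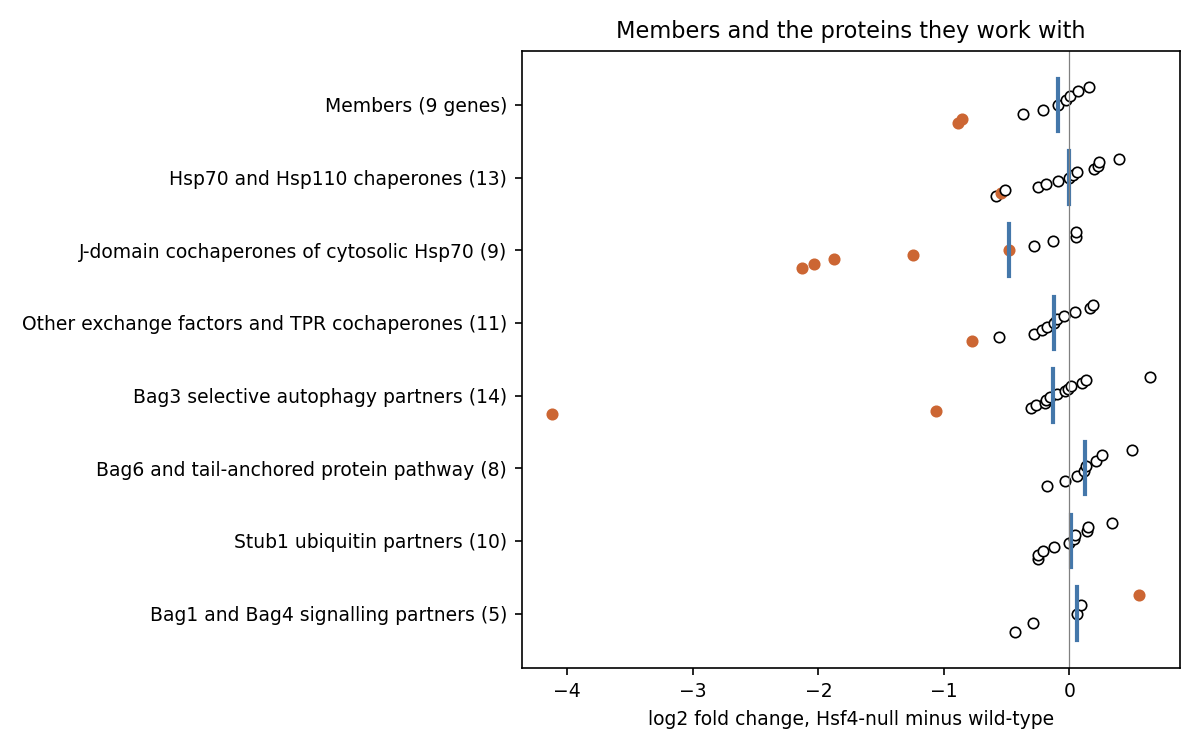
Log2 fold change, Hsf4-null minus wild-type arrays, on the horizontal axis for the 9 members and for 7 lists of genes that work with them, with the number measured in brackets and 1 point per gene by its brightest probe set. Filled points passed at an adjusted p under 0.05 by limma, and vertical bars are medians, farthest from 0 for the J-domain cochaperones at -0.48.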

How the data were processed

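Newborn lens RNA, 50 ng per sample, was amplified and hybridized to Affymetrix mouse arrays. The values deposited by the authors are RMA intensities on a linear scale, with 1 value for each probe set on each array. The sources used here do not give the version of RMA. Log2 was taken, 64 array controls of 22690 probe sets were left out, and limma 3.58.1 in R 4.3.3 was fitted with 2 groups, without a filter or block. The methods name a t-test and give no pairing. Symbols came from the platform's annotation: 20380 tested probe sets had 1, 691 several and 1555 none here. Symbols were updated to the RefSeq genes of GRCm38.p6 by gene identifier. The members and lists were chosen with earlier results of these data known. Named genes were the members, Hsf4, Hspa8, Hspa1a, Hspa1b, Hsph1, up to 4 called genes per list and direction, and the 3 genes most like each called member. Dnaja1 and Hspa4l were named besides, for the limits of the counts of their lists. Procedures were tested on simulated data. SAM, which the methods combined with the t-test, was not run. With 3 arrays per genotype precision is limited. The p-values weigh each difference against the spread between these arrays, which limma moves towards that of all probe sets.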

Additional observations from a re-analysis of the deposited data

How the results depend on the processing

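The fall of St13 kept its call in all 16 alternatives, and no called member changed direction in any. The number of probe sets called, 602 of 22626 tested, became 2912 with the methods' t-test at an unadjusted p under 0.05 and 85 with that test after Benjamini-Hochberg adjustment. With 1 probe set per gene, 366 were called of only 12393 tested. The number of members called, 2, became 1 with the adjusted t-test, and the number of partner genes called, 10, became 22 with the unadjusted and 2 with the adjusted t-test. Leaving out each array in turn gave 321 to 562 probe sets, 1 to 2 members and 5 to 9 partner genes. The probe set count fell most without Hsf4-null replicate 3 (321), then without wild-type replicate 2 (335) and wild-type replicate 3 (358).

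With the replicate number as a block, 382 probe sets, 1 member (St13) and 5 partner genes were called, and Bag3 had an adjusted p of 0.0565 from limma. Same-numbered arrays deviated from their group means with correlations of 0.25, -0.21 and -0.08. These few values cannot show whether same-numbered samples shared a litter or a batch. Why counts differ between settings was not tested. The probe set of Bag2 and the dimmer one of Bag4 lay below the median of every array, and without detection calls their signal over background is unknown.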
